A study of Mus musculus with 30 samples.

Results

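The platelet-derived growth factor (PDGF) family was followed through 6 genes, the ligands *Pdgfa*, *Pdgfb*, *Pdgfc* and *Pdgfd* and the receptors *Pdgfra* and *Pdgfrb*. A probe set, the group of oligonucleotides that reads a transcript on an Affymetrix array, belonged to a member if the platform table gave that gene as its single symbol. This gave 14 of the 45101 probe sets, and each gene was represented by the probe set with the brightest mean over the 30 arrays, as were all 18194 genes with a single-symbol probe set. All 6 members were measured, and all 6 also passed the filter on dim probe sets that was tried as an alternative.

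The Affymetrix GeneChip arrays compared C2C12-pMirn378 cells, which carry a lentiviral construct that overexpresses the miR-378 precursor from a CMV promoter, with C2C12-pMirn0 cells, which carry the parent vector and serve as the control. This assignment follows the line names and the study's methods. The design text deposited with the arrays names construct and vector in the opposite order, and under that reading every line difference below would change its direction with respect to miR-378. C2C12 is a mouse myoblast line that forms myotubes when serum is lowered and turns towards the osteoblast lineage when bone morphogenetic protein 2 (BMP2) is added. Both lines were made by lentiviral transduction and sorted for the copGFP marker of the vector, so each is a pool of transduced cells, and each construct was studied in a single line. RNA was taken at d0, before treatment, and after 3 or 6 days without BMP2 (untreated) or with 300 ng/ml BMP2, which gave 10 groups of 3 arrays. The replicate arrays are described as triplicate experiments, and where they share a culture history the p-values measure only the spread between these arrays. Intensities below are the deposited values on the linear scale, and their number per group limits the precision. The median of all values was 76.5, the typical standard deviation (SD) of replicates on the log2 scale was 0.145 for probe sets as bright as that median or brighter and 0.846 for dimmer ones, and replicate arrays correlated at 0.986 to 0.991. The level of miR-378 itself was not analysed here.

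PDGFs are dimeric ligands that bring receptor tyrosine kinases together at the cell surface. PDGF-A and PDGF-C signal mainly through PDGFRα, PDGF-B binds both receptors, and PDGF-D signals mainly through PDGFRβ. PDGF-C and PDGF-D are secreted in a latent form and need cleavage by proteases such as tissue plasminogen activator, urokinase or matriptase. In muscle, PDGFRα marks fibro-adipogenic and other mesenchymal progenitors and PDGFRβ marks pericytes, and both receptors are known from bone-forming mesenchyme.

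Sequence upstream of an annotated start was available from RefSeq (GRCm38.p6) for *Pdgfa*, *Pdgfc*, *Pdgfd* and *Pdgfra*. The stretches shown here belong to the members with the largest rise with BMP2, a smaller rise and a fall. They are printed 5′ to 3′ on the gene's strand, and capitals mark an E-box, the letters CANNTG bound by basic helix-loop-helix factors such as MyoD.
Pdgfra, chr5:75152001-75152250, + strand: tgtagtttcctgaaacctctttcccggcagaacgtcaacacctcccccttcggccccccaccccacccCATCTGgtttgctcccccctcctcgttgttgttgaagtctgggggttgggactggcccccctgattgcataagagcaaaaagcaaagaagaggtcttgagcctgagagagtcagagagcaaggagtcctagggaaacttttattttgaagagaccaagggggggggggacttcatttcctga
Pdgfc, chr3:81036166-81036415, + strand: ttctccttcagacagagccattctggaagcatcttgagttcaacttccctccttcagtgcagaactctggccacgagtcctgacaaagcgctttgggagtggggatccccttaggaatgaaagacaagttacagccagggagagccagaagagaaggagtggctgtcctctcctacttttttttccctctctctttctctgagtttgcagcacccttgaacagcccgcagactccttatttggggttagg
Pdgfd, chr9:6168236-6168362, + strand: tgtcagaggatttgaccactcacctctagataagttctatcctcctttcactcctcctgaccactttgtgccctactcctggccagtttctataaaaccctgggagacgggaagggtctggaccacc
The *Pdgfra* stretch lies before a start that is downstream of the gene's first annotated base, and the *Pdgfd* stretch ends at the last base before that gene's first annotated base. Windows of 300 bases, from 250 before to 50 after a start, were searched on both strands for CANNTG, for the AP-1 letters TGACTCA and for the letters GGCGCC, which Smad proteins of the BMP pathway can bind. The *Pdgfra* window held 2 E-boxes, CATCTG beginning 182 bases before the start and CAAATG beginning 17 bases after its first base, and no other motif. The *Pdgfc* window held GGCGCC at the start itself, and neither the *Pdgfd* window nor the pair of *Pdgfa* windows held any of the motifs. Among 32851 promoter windows of the same length, an E-box was found in 72.31%, TGACTCA in 5.202% and GGCGCC in 11.87%, so a match or its absence only describes these letters.

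With BMP2, *Pdgfra* rose strongly in both lines while *Pdgfb* fell, and *Pdgfd*, which rose in untreated cells, was lower with BMP2 than without it. *Pdgfrb* rose from d0 under every condition, and it started from a lower level in C2C12-pMirn378 cells than in control cells. *Pdgfa* lay below its d0 level on all later arrays, and *Pdgfc* rose with BMP2 in control cells. Levels are compared only within a gene, since the intensities of different probe sets do not share a scale. These are bulk RNA samples, in which fewer cells of a type and less RNA per cell cannot be told apart.

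**Figure D1:**
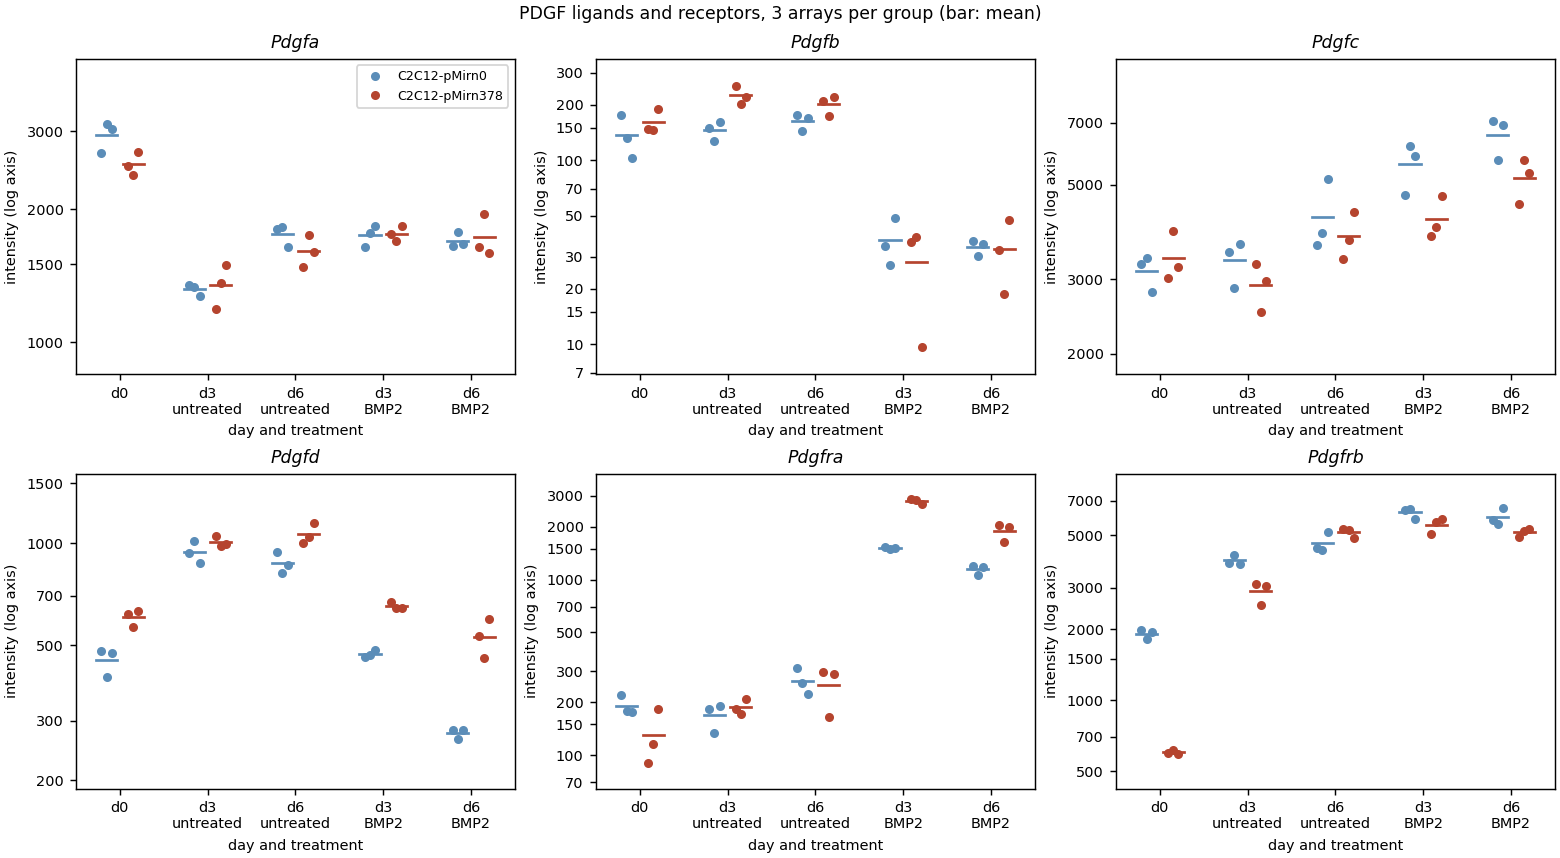
Intensity (log axis) of the representative probe set of each PDGF ligand and receptor on all 30 arrays, by day and treatment, with points for arrays and bars for the mean of 3 arrays in C2C12-pMirn0 (blue) and C2C12-pMirn378 (red) cells. *Pdgfra* lies between 1055 and 2865 on the BMP2 arrays and between 90.2 and 313 on all others, and *Pdgfrb* at d0 lies between 591 and 616 in C2C12-pMirn378 and between 1822 and 1986 in control cells.

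*Pdgfra*, the receptor of PDGF-A and PDGF-C, was low in all arrays without BMP2. In control cells its intensities were 219, 179 and 176 at d0, 183, 134 and 191 at d3 untreated, and 313, 258 and 222 at d6 untreated. In C2C12-pMirn378 cells they were 90.2, 116 and 183 at d0, 183, 171 and 210 at d3 untreated, and 296, 164 and 291 at d6 untreated. The arrays of these groups overlapped between the lines at each time. With BMP2 the control arrays gave 1525, 1499 and 1515 at d3 and 1192, 1055 and 1180 at d6. The C2C12-pMirn378 arrays gave 2865, 2845 and 2687 at d3 and 2048, 1631 and 1981 at d6. Every BMP2 array lay above every array without BMP2, d3 lay above d6 in each line, and C2C12-pMirn378 lay above control at each day, so the 4 BMP2 groups were ordered without overlap.

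At d3, *Pdgfra* with BMP2 exceeded untreated cells 9.05-fold in control cells (log2 ratio 3.18 ± 0.22 SE, adjusted p = 6.61e-11, limma with Benjamini-Hochberg adjustment over all probe sets, as for every adjusted p here). In C2C12-pMirn378 cells the excess was 14.9-fold (log2 ratio 3.90, adjusted p = 1.5e-12). At d6 the ratios were 4.36-fold and 7.77-fold (adjusted p = 4.44e-08 and 1.94e-10). A difference was called where the adjusted p was under 0.005 and the log2 ratio was above 0.6 or below −0.6, the limits of the study's methods. Between the lines with BMP2, C2C12-pMirn378 was higher in 3 of 3 arrays at both days, but neither difference was called in the present fit. The log2 ratio was 0.89 at d3 (adjusted p = 0.00843) and 0.72 at d6 (adjusted p = 0.0489). The spread used by the test was pooled over 10 groups and was 0.27 on the log2 scale, whereas the SD within a group ran from 0.013 to 0.52, the lowest of them in control cells at d3 with BMP2. The d3 difference was called under 6 of the other settings tried, among them quantile normalization (adjusted p = 0.0044), the replicate block (adjusted p = 0.00495) and the filter on dim probe sets (adjusted p = 0.0036). Over the settings tried on this probe set, leaving out an array included, its adjusted p ran from 0.00184 to 0.0304. With the same limits and the same probe set, the study did report *Pdgfra* as significantly raised by the miR-378 construct under BMP2, over successive samplings. The main fit here thus differs from the published call, and the reason was not tested. *Pdgfra* was picked out by the study as an osteogenic gene on these same arrays, so its line difference is not independent evidence of a direction.

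The other *Pdgfra* probe sets were dimmer, with highest group means of 296 and 107, and their group means correlated with those of the representative at r = 0.88 and 0.85 over the 10 groups. On the brighter of them the BMP2 ratio at d3 was 2.35 on the log2 scale in C2C12-pMirn378 cells (adjusted p = 1.52e-07) and 0.66 in control cells (adjusted p = 0.065). The line difference at d3 with BMP2 was 1.24 there (adjusted p = 0.00247) and 0.33 on the dimmest probe set (adjusted p = 0.793). Both had positive ratios in each of the 4 BMP2 comparisons. Of those 8 values, the single one that was called is the first named in this paragraph.

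*Pdgfrb*, the receptor of PDGF-B and PDGF-D, showed the clearest difference between the lines before treatment. At d0 its intensities were 1986, 1822 and 1945 in control cells and 596, 616 and 591 in C2C12-pMirn378 cells. The arrays did not overlap, and the C2C12-pMirn378 level was 0.314 times that of control cells (log2 ratio −1.67 ± 0.088 SE, adjusted p = 4.56e-11). It was the member called among 6 at d0, where 0.83% of all 18194 genes were called in either direction and 0.709% were called lower. The second *Pdgfrb* probe set, which followed the first over the 10 groups at r = 0.996, gave a log2 ratio of −1.91 (adjusted p = 1.43e-07). When the fit held only the 6 arrays at d0, no probe set of the 45101 passed, and the adjusted p of *Pdgfrb* was 0.0543 at the same ratio, whereas under the other settings tried on this probe set it was at most 1.81e-09. At an unadjusted p under 0.05 that fit held 5519 probe sets.

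By d3 without BMP2, *Pdgfrb* reached 3827, 4143 and 3799 in control cells and 3109, 2546 and 3049 in C2C12-pMirn378 cells. The lines still did not overlap, with a log2 ratio of −0.44 that was not called (adjusted p = 0.00921). At d6 untreated the control arrays gave 4409, 4356 and 5193, and the C2C12-pMirn378 arrays gave 5316, 5260 and 4880, so the lines overlapped. With BMP2 the control arrays stood at 6408, 6476 and 5877 at d3 and at 5792, 5567 and 6524 at d6. The C2C12-pMirn378 arrays stood at 5063, 5723 and 5873 at d3 and at 4943, 5200 and 5328 at d6. These lay just below the control arrays without a call, and in the order of group means the first 6 groups, all 4 with BMP2 and both untreated at d6, overlapped from each neighbour to the next.

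From d0 to d6, *Pdgfrb* rose 2.42-fold in untreated control cells and 3.1-fold with BMP2 (log2 ratios 1.27 and 1.63). In C2C12-pMirn378 cells the rise was 8.57-fold untreated and 8.58-fold with BMP2 (log2 ratios 3.10 and 3.10). BMP2 against untreated was called at d3 in both lines, with log2 ratios of 0.67 in control cells (adjusted p = 1.74e-06) and 0.94 in C2C12-pMirn378 cells (adjusted p = 8.53e-09). It was not called at d6, where the ratios were 0.36 and 0.00. The control value at d3 came to 0.57, under the minimum, when arrays were scaled to the median of the brighter probe sets. Both d3 calls were lost with only the 6 arrays of a comparison in the fit (adjusted p = 0.00706 in control and 0.00609 in C2C12-pMirn378 cells).

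The rise of *Pdgfrb* from d0 was larger in C2C12-pMirn378 cells at each time and treatment. Between the lines the log2 ratios differed by 1.23 and 1.82 without BMP2, at d3 and d6, and by 1.50 and 1.47 with it, with adjusted p-values from 6.88e-06 to 7.8e-09. All 4 share the d0 arrays, and each is a later line difference less that at d0, which was −1.67. The later line differences were −0.44 and 0.15 untreated and −0.17 and −0.21 with BMP2, and none was called. The 4 values thus largely restate the d0 difference. *Pdgfrb* was called in each, where 0.539%, 0.693%, 3.86% and 2.43% of all genes were called, and 0.401%, 0.572%, 2.34% and 1.54% were called higher. *Pdgfra* was the second member called at d3 with BMP2, at 1.50 (adjusted p = 0.00305), and was not called at d6 with BMP2, at 1.34 (adjusted p = 0.0118). Both values include the *Pdgfra* line difference at d0, −0.62, which was not called (adjusted p = 0.14). The *Pdgfra* call was lost when any of 11 of the 12 arrays was left out, with ratios from 1.27 to 1.56, whereas *Pdgfrb* stayed called whichever array was left out. With only the 12 arrays of a comparison in the fit, *Pdgfrb* at d3 untreated (adjusted p = 0.0144) and *Pdgfra* at d3 with BMP2 (adjusted p = 0.0289) were not called.

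**Figure D2:**
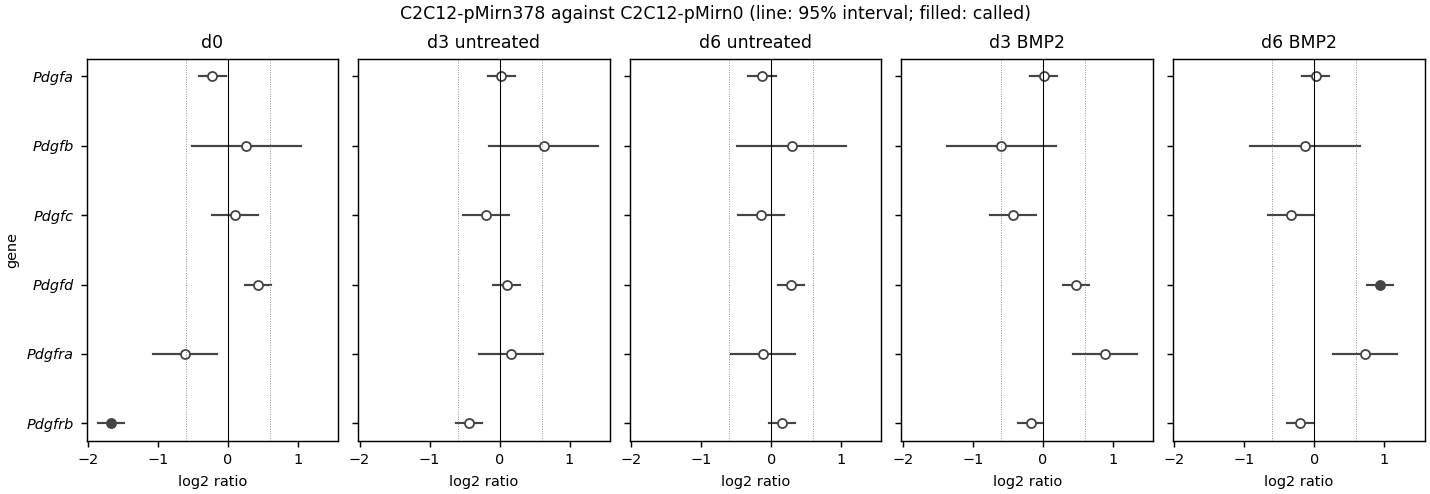
Log2 ratio of C2C12-pMirn378 to C2C12-pMirn0 cells (x axis, with 95% interval) for the 6 PDGF genes at each day and treatment, with filled points for called differences and dotted lines at −0.6 and 0.6. The filled points are *Pdgfrb* at d0, at −1.67, and *Pdgfd* at d6 with BMP2, at 0.94.

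Among the ligands, *Pdgfd* was the one called between the lines. In control cells its intensities were 481, 403 and 473 at d0, 935, 1017 and 872 at d3 untreated, and 944, 818 and 861 at d6 untreated. In C2C12-pMirn378 cells they were 621, 568 and 633 at d0, 1049, 984 and 991 at d3 untreated, and 1001, 1045 and 1145 at d6 untreated. Both untreated days lay above d0 in each line. *Pdgfd* thus rose in untreated cells, by log2 ratios of 1.06 and 0.95 at d3 and d6 in control cells and 0.73 and 0.81 in C2C12-pMirn378 cells (adjusted p between 2.13e-09 and 6.98e-07). With BMP2 the control arrays gave 464, 468 and 484 at d3 and 282, 265 and 281 at d6. The C2C12-pMirn378 arrays gave 672, 643 and 646 at d3 and 534, 458 and 599 at d6. The d6 control arrays with BMP2 were the lowest of all 30, and at each day with BMP2 all control arrays lay below those of C2C12-pMirn378.

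BMP2 lowered *Pdgfd* against untreated cells in both lines and at both days. The log2 ratios were −0.99 and −1.66 at d3 and d6 in control cells (adjusted p = 7.59e-09 and 1.04e-12), and −0.62 and −1.01 in C2C12-pMirn378 cells (adjusted p = 6.68e-06 and 5.09e-09). With only the 6 arrays of a comparison in the fit, both C2C12-pMirn378 calls were lost (adjusted p = 0.00682 and 0.00609), and that at d3 was also lost without untreated replicate 1. The line difference at d6 with BMP2 was 1.91-fold, higher in C2C12-pMirn378 (log2 ratio 0.94 ± 0.091 SE, adjusted p = 3.57e-07), and *Pdgfd* was the member called there, where 2.86% of all genes were called, and 1.54% were called higher. At d3 with BMP2 the difference was 0.47, under the minimum of 0.6 (adjusted p = 0.000977), and at d0 it was 0.43 (adjusted p = 0.00926). The effect of BMP2 itself differed between the lines at d6, by 0.65 on the log2 scale (adjusted p = 0.00379, where 2.05% of all genes were called, 1.03% higher and 1.02% lower), and this call was lost without any of 9 of the 12 arrays, at ratios from 0.56 to 0.67, and with only those 12 arrays in the fit (adjusted p = 0.0874).

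The second *Pdgfd* probe set had a highest group mean of 281, followed the first at r = 0.97 and gave BMP2 ratios between −0.90 and −1.57, all called. Its line difference at d6 with BMP2 was 0.73 (adjusted p = 0.00895) and its line difference in the effect of BMP2 was 0.31 (adjusted p = 0.614), so neither was called there. The third probe set stayed under a group mean of 41.2, below the median of all values, correlated at r = 0.21 with the first and gave the opposite sign in both (log2 ratios −1.46 and −1.82, adjusted p = 0.415 and 0.542). With only the 6 arrays at d6 with BMP2 in the fit, the adjusted p of the first probe set was 0.0543, and it was at most 6.58e-06 under the other settings tried on that probe set.

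*Pdgfb*, the ligand that binds both receptors, lay above the median of all values without BMP2 and fell below it with BMP2. Without BMP2 its intensities ran from 103 to 177 in the 9 control arrays and from 147 to 254 in the 9 C2C12-pMirn378 arrays. With BMP2 they were 34.4, 27.1 and 48.6 at d3 and 36.3, 30.1 and 35.1 at d6 in control cells. The C2C12-pMirn378 arrays with BMP2 gave 35.8, 38.2 and 9.66 at d3 and 32.5, 18.8 and 47.4 at d6. All 12 arrays with BMP2 lay below all 18 arrays without it and below the median of all values, where the deposited values carry no detection call. The log2 ratios of BMP2 to untreated cells were −2.03 and −2.28 in control cells at d3 and d6 (adjusted p = 0.000157 and 3.47e-05), and −3.25 and −2.71 in C2C12-pMirn378 cells (adjusted p = 2.37e-07 and 3.61e-06). With only the 6 arrays of a comparison in the fit, the C2C12-pMirn378 values were not called (adjusted p = 0.0138 and 0.00571). With every value under 50 set to 50 the 4 ratios came to −1.54, −1.71, −2.17 and −2.00, and all were called. The difference of the BMP2 effect between the lines was not called at d3 (−1.22, adjusted p = 0.269), and it rests in part on a single array at 9.66. Without that array the line difference at d3 with BMP2 moved from −0.59 to 0.054. The second *Pdgfb* probe set had negative ratios in the same 4 comparisons, from −0.82 to −1.50, of which the value in C2C12-pMirn378 at d3 was called (adjusted p = 0.0033).

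*Pdgfc*, a ligand of PDGFRα, rose with BMP2 in control cells. Its control intensities were 3255, 3356 and 2791 at d0, and with BMP2 they were 4733, 6190 and 5866 at d3 and 7069, 5715 and 6903 at d6. Untreated control arrays lay between 2852 and 5157. The rise from d0 to d6 with BMP2 was 2.09-fold (log2 ratio 1.06, adjusted p = 8.03e-06), and BMP2 against untreated was called at d3 (0.75, adjusted p = 0.000597) and at d6 (0.65, adjusted p = 0.00202). In C2C12-pMirn378 cells the arrays gave 3017, 3891 and 3196 at d0, and with BMP2 they gave 3789, 3975 and 4701 at d3 and 4499, 5735 and 5342 at d6. From d0 to d6 with BMP2 the log2 ratio was 0.63 (adjusted p = 0.00264), and this call was lost without any of 4 arrays and with only the arrays of the comparison in the fit (adjusted p = 0.0158). The log2 ratios of BMP2 to untreated cells were 0.52 and 0.46 there and were not called (adjusted p = 0.013 and 0.0284), and the difference of the BMP2 effect between the lines was not called either (−0.24 at d3, adjusted p = 0.728). The control call at d6 was lost without any of 4 of the 6 arrays, and that at d3 without either of 2, and neither was called with only the 6 arrays of its comparison in the fit (adjusted p = 0.0508 and 0.027). The second *Pdgfc* probe set correlated at r = 0.98, and on it BMP2 against untreated was called at d3 in both lines (0.82 and 0.67) and at d6 in neither (0.48 and 0.47). Between the lines with BMP2, the first probe set gave log2 ratios of −0.43 at d3 and −0.34 at d6 (adjusted p = 0.0915 and 0.248). The second gave −0.39 and −0.26 (adjusted p = 6.13e-05 and 0.00705), within the minimum of 0.6. Untreated line ratios at d3 and d6 ran from −0.14 to −0.25 on these probe sets, and no *Pdgfc* line difference was called.

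*Pdgfa*, the other ligand of PDGFRα, was highest at d0. Its intensities there were 2679, 3123 and 3040 in control cells and 2501, 2390 and 2696 in C2C12-pMirn378 cells. All arrays at d3 and d6 lay between 1185 and 1950, and the lowest group means were those of d3 untreated in both lines, at 1317 and 1346. The fall in untreated cells was called in both lines. The log2 ratios at d3 and d6 were −1.16 and −0.74 in control cells and −0.91 and −0.66 in C2C12-pMirn378 cells. With BMP2 they were −0.75 and −0.79 in control cells, which were called, and −0.52 and −0.55 in C2C12-pMirn378 cells, which stayed within the minimum of 0.6 (adjusted p = 7.56e-05 and 3.73e-05). BMP2 against untreated was at most 0.41 in size, and the groups at d3 with BMP2 and at d6 overlapped from each to the next. The second *Pdgfa* probe set followed the first at r = 0.90. On it BMP2 against untreated was called at d3 in both lines (0.64 and 0.69), and the change from d0 with BMP2 was not called in control cells (−0.46 and −0.35).

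Counted over the family, differentiation was called by the study's rule, which asks for an adjusted p under 0.005 at d6 against d0 and for log2 ratios that average beyond 0.6 in size over both days. In untreated control cells 2 members (*Pdgfd* and *Pdgfrb*) were called higher and 1 (*Pdgfa*) lower, where 23.2% of all genes were called, 11.5% higher and 11.7% lower. With BMP2, 3 control members (*Pdgfc*, *Pdgfra* and *Pdgfrb*) were higher and 2 (*Pdgfa* and *Pdgfb*) lower, where 21.8% were called, 11.6% higher and 10.2% lower. In C2C12-pMirn378 cells the untreated count was 3 higher (*Pdgfd*, *Pdgfra* and *Pdgfrb*) and 1 lower (*Pdgfa*), where 23.8% of all genes were called, 12.8% higher and 11% lower. With BMP2 it was 2 higher (*Pdgfra* and *Pdgfrb*) and 1 lower (*Pdgfb*), where 23.9% were called, 13.2% higher and 10.7% lower. *Pdgfra* in untreated C2C12-pMirn378 cells rested on a log2 ratio of 0.96 at d6, with arrays that overlapped those of d0, and this call was lost without any of 4 arrays and with only the arrays of the comparison in the fit (adjusted p = 0.0551). The *Pdgfb* call with BMP2 in C2C12-pMirn378 cells was also lost in that kind of fit (adjusted p = 0.0158). On the second *Pdgfb* probe set the fall from d0 with BMP2 was called in neither line (adjusted p = 0.0288 in control and 0.0627 in C2C12-pMirn378 cells). The median log2 ratio of the 6 members was 0.22, 0.31, 0.59 and 0.21 in these 4 comparisons, beside −0.04, −0.00, 0.14 and 0.08 over all genes.

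BMP2 against untreated cells was called for 5 members in control cells at d3, 4 in control cells at d6, 4 in C2C12-pMirn378 at d3 and 3 at d6. Of all genes, 19.6% were called in control cells at d3, 11.2% higher and 8.48% lower. At d6 the share was 21.7%, 11% higher and 10.6% lower. In C2C12-pMirn378 cells it was 23.2% at d3, 13.3% higher and 9.84% lower, and 21.9% at d6, 10.8% higher and 11.1% lower. *Pdgfra* was higher and *Pdgfb* and *Pdgfd* were lower in all 4. The called shares of the members were above those of all genes in each comparison, but 6 genes chosen with earlier results of these data known do not set a rate.

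**Figure D3:**
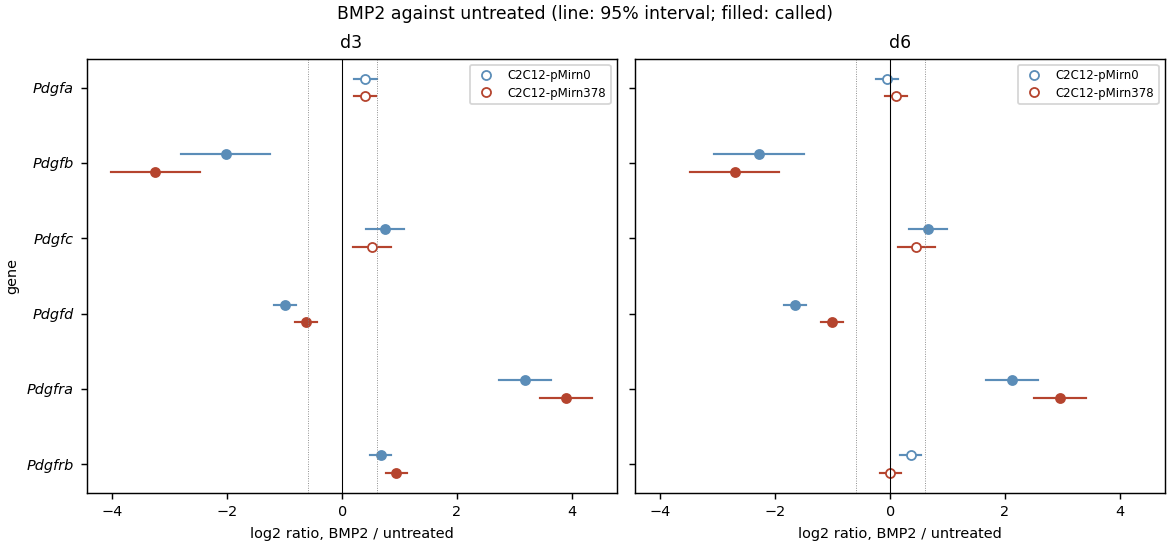
Log2 ratio of BMP2 to untreated cells (x axis, with 95% interval) for the 6 PDGF genes at d3 and d6 in C2C12-pMirn0 (blue) and C2C12-pMirn378 (red) cells, with filled points for called differences and dotted lines at −0.6 and 0.6. *Pdgfra* ratios run from 2.12 to 3.90, *Pdgfb* ratios from −2.03 to −3.25 and *Pdgfd* ratios from −0.62 to −1.66.

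Between the lines, limma called no member in 3 of the 5 comparisons. At d3 untreated 0 of 6 were called, where 0.715% of all genes were called, 0.418% higher and 0.297% lower, and 1 had an unadjusted p under 0.05, as did 10.8% of all genes. At d6 untreated 0 were called, where 0.247% of all genes were called, 0.165% higher and 0.0824% lower, and 1 had an unadjusted p under 0.05, as did 11.6% of all genes. At d3 with BMP2 0 were called, where 4.36% of all genes were called, 2.49% higher and 1.87% lower, and 3 had an unadjusted p under 0.05, as did 27.7% of all genes. *Pdgfra* was called there under some other settings, as given above. The difference of the BMP2 effect between the lines at d3 was called for 0 members, beside 2.02% of all genes, 1.15% higher and 0.874% lower. At an unadjusted p under 0.05 it held 4 members, beside 19.1% of all genes.

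Around the ligands and receptors, a list of 26 PDGF pathway genes was read in 4 groups, namely ligand processing, ligand binding and co-receptors, receptor-proximal signalling, and receptor phosphatases and ligases. With BMP2 against untreated, 7 were called higher and 1 lower in control cells at d3, 7 and 3 at d6, and in C2C12-pMirn378 cells 8 and 1 at d3 and 7 and 4 at d6. The shares of all genes called were 11.2% higher and 8.48% lower, 11% and 10.6%, 13.3% and 9.84%, and 10.8% and 11.1% in the same order. The median log2 ratios were 0.20, 0.12, 0.24 and 0.06, beside 0.05, 0.08, −0.03 and −0.03 over all genes. Without BMP2, differentiation gave 0 higher and 3 lower in control cells and 2 higher and 4 lower in C2C12-pMirn378 cells, where 23.2% and 23.8% of all genes were called. With BMP2 it gave 5 and 2 in control cells and 5 and 1 in C2C12-pMirn378 cells, where 21.8% and 23.9% were called.

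Of the ligand-binding group, *Nrp1*, which encodes the co-receptor neuropilin 1, rose with BMP2 in all 4 comparisons, by 1.23 and 0.97 in control cells and 1.54 and 1.32 in C2C12-pMirn378 cells on the log2 scale. *Lrp1*, an endocytic receptor that associates with PDGFRβ, rose in the same comparisons, by 1.08 and 0.61 in control and 1.29 and 1.11 in C2C12-pMirn378 cells, while *Sparc*, which binds PDGF-B, was called in none. In the ligand-processing group, *Plat* was called higher in all 4 (1.24 and 0.62 in control, 1.19 and 0.89 in C2C12-pMirn378 cells). *Plau* was called higher at d3 in both lines (0.70 and 0.75), and *Furin* and *St14* in none.

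In the receptor-proximal group of 13, *Pik3r1*, the regulatory subunit of PI3 kinase, rose in all 4 BMP2 comparisons, by 1.31 and 0.93 in control and by 1.51 and 0.91 in C2C12-pMirn378 cells. The adaptor *Grb2* fell in all 4, by log2 ratios of −0.91 and −1.30 in control and −0.97 and −1.09 in C2C12-pMirn378 cells. *Rasa1*, a GTPase-activating protein for Ras, was called lower at d6 in both lines (−1.06 and −1.16), and so was the adaptor *Nck1*. Of the 6 phosphatases and ligases, *Cbl*, a ubiquitin ligase of activated receptors, and *Ptprj*, a receptor phosphatase, were called higher in all 4, *Ptprj* by up to 1.31.

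In untreated cells, *Plau* and *Cbl* had the largest mean falls from d0, of −0.92 and −0.90 in control and −0.93 and −0.92 in C2C12-pMirn378 cells, followed by *Src* in control cells (−0.78) and *Ptprj* in C2C12-pMirn378 cells (−0.82). With BMP2 the largest called means from d0 were *Pik3r1* (1.47), *Nrp1* (1.25) and *Rasa1* (−0.97) in control cells and *Nrp1* (2.00), *Pik3r1* (1.41) and the ubiquitin ligase *Cblb* (1.04) in C2C12-pMirn378 cells.

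Between the lines, 3 of the 26 were called at d6 with BMP2, all higher in C2C12-pMirn378, namely *Plau* (0.66), *Nrp1* (0.61) and *Lrp1* (0.60), where 1.54% of all genes were called higher. In the other 4 line comparisons limma called 0 of the 26. Of all genes, 0.83% were called at d0, 0.715% and 0.247% untreated at d3 and d6, and 4.36% at d3 with BMP2. *Plau*, *Nrp1* and *Lrp1* lay close to the minimum of 0.6, and 1 of these 3 was called when arrays were scaled to the median of the brighter probe sets. The change of *Nrp1* from d0 to d6 was larger in C2C12-pMirn378 cells, by 0.74 untreated (adjusted p = 0.00211) and by 1.10 with BMP2 (adjusted p = 9e-06). Both values share the d0 arrays, and each is the line difference at d6 less that at d0. The d6 line difference itself was 0.61 with BMP2 and was not called untreated.

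**Figure D4:**
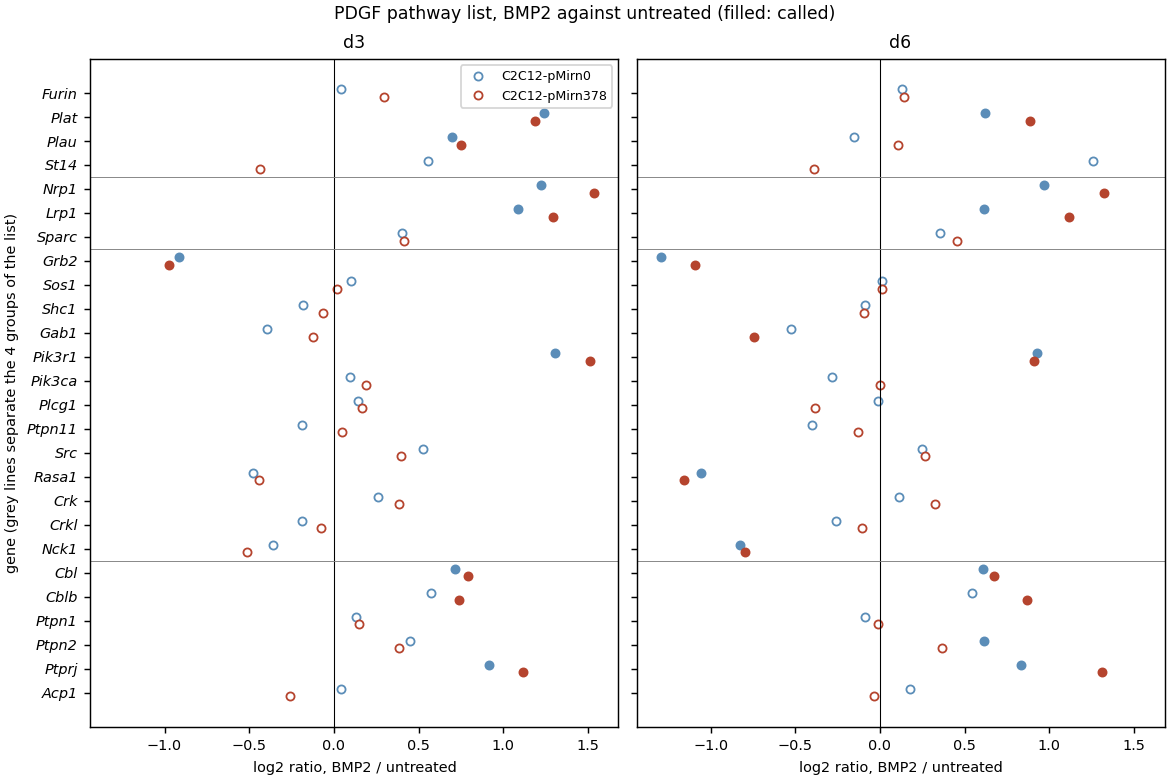
Log2 ratio of BMP2 to untreated cells (x axis) for 26 PDGF pathway genes at d3 and d6 in C2C12-pMirn0 (blue) and C2C12-pMirn378 (red) cells, with filled points for called differences. *Nrp1*, *Lrp1*, *Plat*, *Pik3r1*, *Cbl* and *Ptprj* are filled and above 0 in all 4 comparisons, and *Grb2* is filled and below 0 in all 4.

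Over the 10 group means, the pattern of each member was set beside those of 6284 genes whose group means spanned at least 1 on the log2 scale. These correlations are descriptions over 10 points that share arrays and treatments. The group means nearest to those of *Pdgfra* were those of *Ehbp1* (r = 0.992), *Antxr1* (r = 0.992) and *Pth1r* (r = 0.992), the last being the parathyroid hormone receptor. Nearest to *Pdgfrb* were *Svep1* (r = 0.983), *Ror2* (r = 0.978), a receptor for Wnt ligands, and *Slc25a35* (r = 0.974). *Pdgfb* lay nearest to *Mecom* (r = 0.985), *Psmb10* (r = 0.983) and *Cdh15* (r = 0.982), which encodes the muscle cadherin M-cadherin.

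*Pdgfd* was nearest to *Lactb* (r = 0.971), *Nuak1* (r = 0.968) and *Ptprd* (r = 0.957), and *Pdgfc* to *B230217O12Rik* (r = 0.975), *Wwp1* (r = 0.973) and *Prxl2c* (r = 0.971). *Pdgfa* was nearest to *Rfc1* (r = 0.970), a subunit of the replication clamp loader, *Prpf4* (r = 0.968), a splicing factor, and *Zw10* (r = 0.966), a kinetochore protein. Among the members themselves the extremes were *Pdgfb* and *Pdgfra*, at r = −0.961, and *Pdgfc* and *Pdgfra*, at r = 0.773.

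The 4 myoblast markers all lay above the median of all values in every group, with summed intensities of 15571 to 23291 without BMP2 and 7361 to 11393 with it. With BMP2 against untreated, 3 of the 4 were called lower in each comparison but control cells at d6, where 2 were. In control cells 1 of the 4 was called higher at both days. Over these comparisons 8.48% to 11.1% of all genes were called lower. At d6 with BMP2 the sum was 7361 to 8033 in C2C12-pMirn378 and 10490 to 10777 in control cells, and 3 of the 4 were called lower between the lines. Markers of other fates moved with the same groups. The summed intensity of 5 myotube markers was 73322 to 97976 in the untreated groups at d3 and d6, and 5631 to 17682 with BMP2. At d6 with BMP2 it was 5631 to 6603 in C2C12-pMirn378 and 11432 to 12893 in control cells, the groups in which *Pdgfd* differed, and 4 of the 5 were called lower between the lines. At d3 with BMP2, 1 of the 5 was called higher and 2 lower between the lines. The sum of the 3 osteoblast markers with a single-symbol probe set (*Sp7*, *Dlx5* and *Alpl*) was 135 to 232 without BMP2. With BMP2 it was 2685 to 3560 in control and 5964 to 7678 in C2C12-pMirn378 cells, so the arrays of the lines did not overlap. Between the lines with BMP2, 1 of the 3 was called higher at d3 and 2 at d6, where 2.49% and 1.54% of all genes were. BMP2 against untreated was called higher for all 3 in each comparison but control cells at d6, where 2 were. In both control groups with BMP2, 1 of the 3 lay below the median of all values. Of the 4 pericyte markers, the sum was 261 to 394 without BMP2 and 818 to 1216 with it. *Cspg4* was the 1 marker called higher, by log2 ratios from 1.87 to 2.30, while *Rgs5* and *Kcnj8* were not called with BMP2 and *Abcc9* was called lower at d6.

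All 4 endothelial markers lay below the median in every group but untreated C2C12-pMirn378 at d6, where 3 did. Of the 3 haematopoietic markers, summed at 117 to 186 without BMP2 and at 192 to 1026 with it, *Csf1r* alone was called with BMP2, by up to 3.51, and *Ptprc* stayed below the median. The sum of 3 adipocyte markers was 208 to 354 without BMP2 and 458 to 696 with it, with *Pparg* called higher in 3 of 4 comparisons. The part of these markers in the levels of the PDGF genes was not tested.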

How the data were processed

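Total RNA of 30 samples was hybridised to Affymetrix GeneChip mouse arrays. According to the study's methods, the authors quantified the scans with the Affymetrix Command Console and summarised and quantile normalised them with RMA in R 2.4.1. The deposited table holds 1 intensity on the linear scale per probe set and array, with no detection call, and its array medians run from 68.0 to 82.7. Its lowest value is 0.056. Quantile normalised arrays would have nearly equal medians, so the deposited values may not be those that the methods describe. This was not resolved here. No scan date or batch is given in the sources used here.

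Arrays were assigned to line, day, treatment and replicate by their labels. All probe sets were taken to log2 and fitted with limma 3.58.1 in R 4.3.3 as the means of 10 groups (20 residual and 1.2 prior degrees of freedom), followed by contrasts, eBayes and Benjamini-Hochberg adjustment within each contrast. The fit was tested on simulated data. Of the probe sets, 34958 carry 1 symbol, 932 several and 9211 none in the platform table. Members, lists and tests were chosen with earlier results of these data known, and the comparison of the change from d0 between the lines was added after the data were seen. Named were all members, up to 3 called pathway genes with the largest change per comparison, with the other pathway genes that moved in all or both BMP2 comparisons chosen after their values were seen, and 3 genes per member with the most similar group means. Same-numbered replicates deviated together with r between −0.17 and 0.23, and all 3 numbers exceeded 0.1 in 1 of 17 contrasts, BMP2 against untreated in C2C12-pMirn378 at d6.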

Additional observations from a re-analysis of the deposited data

Results flagged for a closer look

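The following values are differences between the lines in the same contrast, each past both limits in a test of the difference itself, with no explanation weighed. The log2 ratio of BMP2 to untreated cells at d6 was less negative for *Pdgfd* in C2C12-pMirn378 than in control cells, by 0.65 (adjusted p = 0.00379). Leaving out any of 9 of the 12 arrays lost this call. The change of *Pdgfrb* from d0 was larger in C2C12-pMirn378 cells on the log2 scale, by 1.23 and 1.82 without BMP2 (d3 and d6) and by 1.50 and 1.47 with it. All 4 share the d0 arrays and largely restate the line difference at d0, which was −1.67. The change of *Pdgfra* from d0 to d3 with BMP2 was larger in C2C12-pMirn378 cells by 1.50 (adjusted p = 0.00305). That value includes the *Pdgfra* line difference at d0, −0.62, which was not called (adjusted p = 0.14). The line difference at d3 with BMP2, 0.89, was not called either. Leaving out any of 11 of the 12 arrays lost the call of 1.50. Groups of 3 arrays were not searched for single distant arrays.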

How the results depend on the processing

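Of 84 log2 ratios of the members, values under 50 set to 50 changed no call, and an offset of 16, array weights, quantile normalization or the replicate block each changed 1, the gain of *Pdgfra* between the lines at d3 with BMP2. Trend and robust eBayes and the filter on dim probe sets each gained 2, that value and *Pdgfra* in the change from d0 between the lines at d6 with BMP2, so that the members called rose from 0 to 1 at d3 and from 1 to 2 in the latter. In these data the replicate block thus changed the count for the line difference at d3 with BMP2 from 0 to 1 and no other. All 3 replicate numbers deviated together at r over 0.1 only for BMP2 against untreated in C2C12-pMirn378 at d6, whose calls the block left as they were. Such weak correlations cannot tell whether same-numbered arrays came from a shared experiment. Scaling to the median of the brighter probe sets, which moved the median of all genes by −0.10 in control cells at d3 with BMP2 against untreated, lost 3 calls (2 of *Pdgfc*, 1 of *Pdgfrb*).

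Fitting only the arrays of a comparison, with 4 to 8 residual degrees of freedom, lost 17 calls and gained none. The members called became 3 and 1 for BMP2 against untreated at d3 in control and C2C12-pMirn378 cells, 1 in C2C12-pMirn378 at d6, 0 between the lines at d0 and at d6 with BMP2, 0 for the difference of the BMP2 effect at d6, and 0 and 1 for the change from d0 between the lines at d3 untreated and with BMP2. *Pdgfc* was also lost for BMP2 against untreated in control cells at d6 (adjusted p = 0.0508). In C2C12-pMirn378 cells at d6 over d0, *Pdgfra* was lost untreated and *Pdgfb* with BMP2 (adjusted p = 0.0551 and 0.0158). Of the 26 pathway genes, this fit called 6 where 10 were called for BMP2 against untreated in control cells at d6, 5 in place of 9 and 7 in place of 11 in C2C12-pMirn378 cells at d3 and d6, and 0 where 3 were called for the line difference with BMP2 at d6 and where 1 was called for the change from d0 at d6 untreated. The scaling gave 5 in place of 10 and 1 in place of 3.

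Without any 1 array the members called ranged from 0 to 1 for the difference of the BMP2 effect at d6, and from 1 to 2 for the change from d0 between the lines at d3 and at d6 with BMP2. For BMP2 against untreated they ranged from 4 to 5 and from 3 to 4 in control cells at d3 and d6. In C2C12-pMirn378 cells they ranged from 3 to 4 for BMP2 against untreated at d3 and for untreated differentiation. Of 606 log2 ratios refitted without an array, 36 lost their call and 4 gained one. All 606 such ratios kept their sign but 1, *Pdgfb* between the lines at d3 with BMP2, which ranged from −0.94 to 0.054 and turned without replicate 3 of C2C12-pMirn378. Of 118 ratios read on another probe set, 73 stayed the same, 31 lost their call and 3 gained one. The other 11 turned their sign. For *Pdgfd*, the dimmest probe set gave 0.075 for BMP2 against untreated in control cells at d6, −0.45 for untreated control cells at d6 over d0, −0.24 and −0.17 for untreated C2C12-pMirn378 cells at d3 and d6 over d0, −0.84 and −1.46 between the lines at d3 and d6 with BMP2, −1.82 for the difference of the BMP2 effect at d6 and −1.55 for the change from d0 between the lines at d6 with BMP2. For *Pdgfra* the dimmer probe sets gave −1.34 and −0.44 at d6 untreated over d0 in control cells, and the dimmest gave −0.83 for the difference of the BMP2 effect at d6. The cause of these changes was not tested.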
